A study of Arabidopsis thaliana with 8 samples.

Results

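LHCB4.1, LHCB4.2 and LHCB4.3 encode the isoforms of CP29, an antenna protein of photosystem II. They are 3 of the 13350 genes that the probe annotation names, and they were chosen by gene symbol with their signals in these samples already known. Their levels and changes below are therefore a description, with standard errors but no test. LHCB4.1 (AT5G01530, chromosome 5), LHCB4.2 (AT3G08940, chromosome 3) and LHCB4.3 (AT2G40100, chromosome 2) are each read by 1 probe set. All 3 lay above the floor, the signal of 10.0 below which values were not told apart, on all 8 arrays.

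RNA of bulked whole Arabidopsis thaliana seedlings was measured on Affymetrix ATH1 arrays, 2 for each of 4 genotypes. Besides wild type (Columbia, Col-0), seedlings carried a T-DNA insertion in 1 gene (clf-28 or swn-7) or in both (clf-28 swn-7, the double mutant). CURLY LEAF (CLF) and SWINGER (SWN) encode related histone methyltransferases of the Polycomb group, which keep genes silent through methylation of histone H3. All seeds had 3 days of cold before growth on agar. The double mutant then had 12 days of growth where the other genotypes had 10, and in every double-mutant value below its age and its genotype cannot be told apart. The labels give growth stage 1.03 to every sample. Whether arrays of the same genotype stem from separate cultures is not stated, so the spread between them, on which every p-value rests, may be technical.

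CP29 is a chlorophyll-binding protein that sits singly between the photosystem II core and the trimeric main antenna, passes excitation energy inwards and takes part in the dissipation of excess light. In Arabidopsis LHCB4.1 and LHCB4.2 encode the common forms. LHCB4.3 encodes a form with a shorter C-terminal part, whose transcript is normally scarce and is known to accumulate in strong light.

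The LHCB4 transcripts moved apart in the double mutant. LHCB4.1 and LHCB4.2, the abundant-form genes, had signals of 6.27% and 2.77% of the wild-type mean, while LHCB4.3 had 468% of it. In clf-28 alone, LHCB4.3 stood at 204% of wild type, with LHCB4.1 at 84.4% and LHCB4.2 at 91.4%. In swn-7 alone the shares were 99.4% for LHCB4.1, 104% for LHCB4.2 and 111% for LHCB4.3.

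LHCB4.1 gave signals of 4127 and 5348 on the wild-type arrays, 4092 and 3907 in clf-28, 5504 and 3913 in swn-7, and 258 and 336 in the double mutant. Both double-mutant arrays lay far below the other 6, and each of the 12 comparisons of a double-mutant array with another array gave a gap between 11.6-fold and 21.3-fold. The fitted change of the double mutant from wild type was log2 -3.995 (limma SE 0.25, 2 arrays per genotype), or 15.9-fold lower. In whole seedlings, fewer green cells and less RNA per cell cannot be told apart. The clf-28 arrays lay just below both wild-type arrays (log2 -0.23, SE 0.25), a gap smaller than its error, and the swn-7 arrays enclosed the wild-type ones (log2 -0.02, SE 0.25).

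LHCB4.2 also dropped in the double mutant, by more. Its signals were 3338 and 3863 in wild type, 3301 and 3283 in clf-28, 4482 and 3037 in swn-7, and 80.9 and 119 in the double mutant. The double-mutant signals were between 25.6-fold and 55.4-fold under those of the other 6 arrays, and still 8.09 times the floor at the lowest. The fitted change from wild type was log2 -5.19 (limma SE 0.25), or 36.6-fold lower. Of the 14372 probe sets above the floor on all 4 arrays compared, 18 had a lower value than LHCB4.2 and 91 a lower value than LHCB4.1. The clf-28 (log2 -0.13, SE 0.25) and swn-7 (log2 0.04, SE 0.25) changes were within their errors.

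LHCB4.3 gave 58.6 and 36.3 in wild type, the lower of them 3.63 times the floor, with 56.9 and 48.9 in swn-7. In clf-28 it gave 90.6 and 103, and in the double mutant 182 and 261. The groups formed 3 steps without overlap: wild type and swn-7 together, then clf-28, then the double mutant. Wild type and swn-7 did not differ beyond their spread (log2 0.19, SE 0.28). The clf-28 value was log2 1.07 above wild type (limma SE 0.28) and the double-mutant value log2 2.24 (SE 0.28), or 4.73-fold. The double mutant was log2 1.17 above clf-28 (SE 0.28) and log2 2.05 above swn-7 (SE 0.28). The wild-type arrays were 1.61-fold apart, more than those of any other genotype for this gene, so the size of each change from wild type rests in part on which of them is used.

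In the double mutant, 2 of 3 genes had both arrays below both wild-type arrays and 1 of 3 had both above, against 31.6% and 40.3% of all 17332 tested probe sets. In clf-28 the counts were 2 of 3 below, against 20.6% of all tested, and 1 of 3 above, against 23.2%. Since the genes were picked with these values known, nothing is read from these counts.

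**Figure D1:**
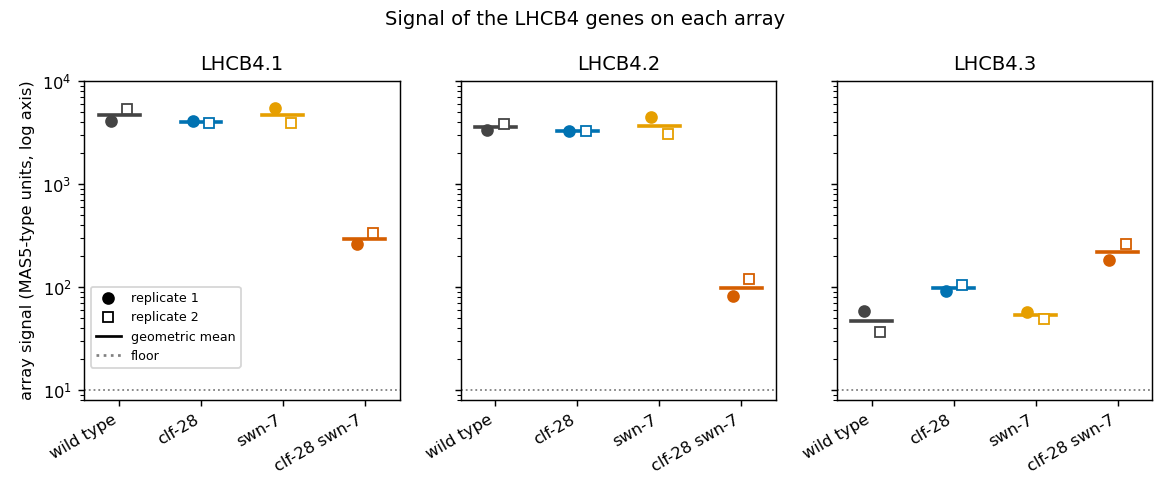
Array signal on a log axis of LHCB4.1, LHCB4.2 and LHCB4.3 in the 4 genotypes, with 1 point per array (filled for replicate 1, open for replicate 2), a bar at the geometric mean and a dotted line at the floor of 10.0. LHCB4.1 and LHCB4.2 drop to 258 and 336 and to 80.9 and 119 in the double mutant, while LHCB4.3 climbs to 182 and 261.

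The paralogs were then compared on each array, which removes any factor that scales a whole array. Probe sets differ in how strongly they bind, so the difference between paralogs is not a ratio of transcript amounts, and only its change between genotypes was read. LHCB4.2 minus LHCB4.1 was nearly the same on the 6 arrays of wild type and the single mutants, between log2 -0.47 and -0.25. It was -1.67 and -1.50 on the double-mutant arrays. The mean change from wild type was -1.199, so LHCB4.2 dropped 2.296-fold more than LHCB4.1. The spread of this difference was 0.12 (SD, n = 2) in wild type and 0.12 (SD, n = 2) in the double mutant.

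LHCB4.3 minus LHCB4.1 was log2 -6.14 and -7.20 in wild type, -6.60 and -6.32 in swn-7, -5.50 and -5.24 in clf-28, and -0.50 and -0.36 in the double mutant. Both clf-28 arrays were above all wild-type and swn-7 arrays, and the double-mutant arrays stood apart from all others. From wild type, the ratio of LHCB4.3 to LHCB4.1 was 2.46-fold higher in clf-28 and 75.5-fold higher in the double mutant (log2 6.24). In swn-7 the change was log2 0.21, within the wild-type spread of 0.75 (SD, n = 2).

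Against LHCB4.2 the change was larger still. LHCB4.3 minus LHCB4.2 was log2 -5.83 and -6.73 in wild type and 1.17 and 1.14 in the double mutant, a change of 7.44, or 173-fold. Its spread was 0.64 (SD, n = 2) between the wild-type arrays and 0.026 (SD, n = 2) between the double-mutant arrays. On the double-mutant arrays, LHCB4.2 and LHCB4.3 alone were 1.47-fold and 1.43-fold apart. Leaving out 1 of the 4 compared arrays gave changes of 6.99 to 7.89.

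**Figure D2:**
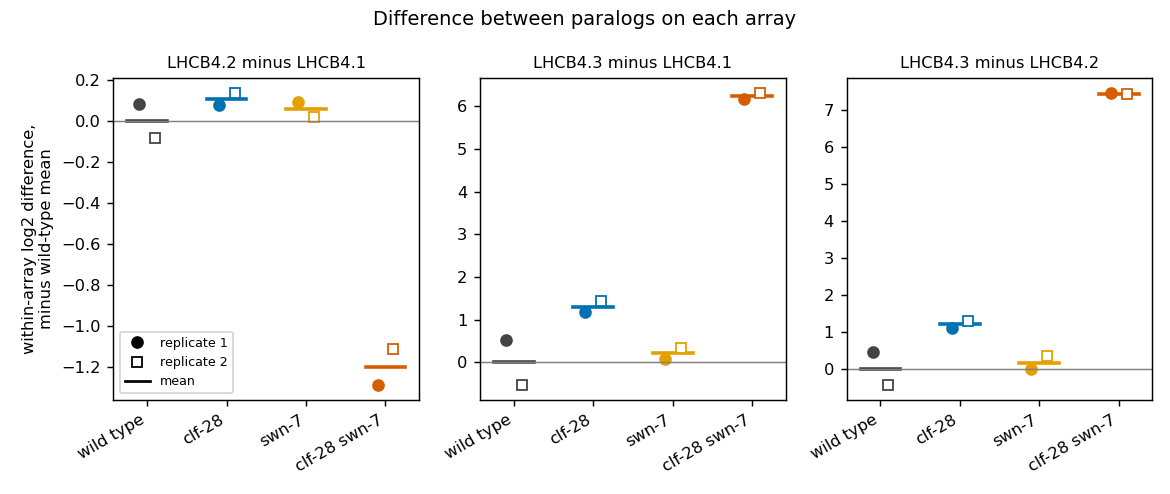
Log2 signal of 1 paralog minus another on the same array, with the wild-type mean set to 0, for the 4 genotypes (points are arrays, bars are means, each panel with its own axis). LHCB4.2 minus LHCB4.1 changes by -1.199 in the double mutant, and LHCB4.3 minus LHCB4.1 and minus LHCB4.2 are higher by 6.24 and 7.44.

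The design also asks whether losing both methyltransferases equals the sum of losing each. For LHCB4.1 and LHCB4.2 the single-mutant changes summed to log2 -0.25 and -0.09, against -3.995 and -5.19 in the double mutant. The departure from additivity (the interaction, which takes the summed single-mutant changes from the double-mutant change) was -3.74 (limma SE 0.35) and -5.11 (SE 0.36). For LHCB4.3 the single-mutant changes summed to 1.26, of which clf-28 gave 1.07, against 2.24 in the double mutant. Its interaction was 0.98 (SE 0.39), and 0.64 or 1.33 without wild type replicate 1 or 2. LHCB4.3 was log2 1.07 higher in clf-28 than in wild type, and 2.05 (SE 0.28) higher in the double mutant than in swn-7. The second step and the interaction also hold the difference in age. For LHCB4.1 the same steps gave -0.23 and -3.98, and for LHCB4.2 they gave -0.13 and -5.23.

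Other genes of the light reactions were compared through lists of antenna proteins, nuclear-encoded photosystem subunits and LHC-related proteins. None of the 18 other antenna genes is among the probe sets named here, so LHCB4 was not compared with other antenna transcripts. Of 33 photosystem and LHC-related genes, 7 are among the named and tested probe sets, and are called measured here. Whether unnamed probe sets read the others was not examined. The 7 genes stand in for the planned antenna list, and the lists were chosen with earlier results of these data known. Their counts and p-values below are not independent of that choice. Calls used limma with Benjamini-Hochberg adjustment over all probe sets, at an adjusted p below 0.05. Of the 7 genes, 6 fell from wild type to the double mutant and 0 rose, against 21.5% of all probe sets called lower. Their median log2 change was -2.62, against 0.11 over all tested probe sets. LHCB4.2, at -5.19, was below each of the 7 and LHCB4.3, at 2.24, above each of them.

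The photosystem I genes fell most of the 7. PSAN, a lumenal subunit, had signals of 3040 and 3011 in wild type and 113 and 192 in the double mutant, and fell 20.6-fold (log2 -4.36, SE 0.26, limma adjusted p = 1.95e-05). PSAE-1, a stromal subunit on the ferredoxin side, fell 16.7-fold (log2 -4.06, SE 0.31, limma adjusted p = 5.60e-05). LHCB4.1, at -3.995, lay just above PSAE-1.

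Of the photosystem II genes, PSBY, a small membrane subunit, fell 12.4-fold (log2 -3.64, SE 0.31, limma adjusted p = 9.57e-05). PSBW, which stabilises photosystem II supercomplexes, fell 5.56-fold (log2 -2.48, SE 0.28, limma adjusted p = 0.000348). PSB27, an assembly factor, fell 3.42-fold (log2 -1.77, SE 0.25, limma adjusted p = 0.000981).

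The LIL3 genes encode light-harvesting-like proteins that hold an enzyme of chlorophyll and tocopherol synthesis at the thylakoid, and they form another pair of paralogs that moved unequally. LIL3:1 had signals of 605 and 779 in wild type and 118 and 105 in the double mutant, and fell 6.17-fold (log2 -2.62, SE 0.22, limma adjusted p = 8.62e-05). LIL3:2 had 629 and 645 in wild type and 584 and 842 in the double mutant, with overlapping groups (log2 0.14, SE 0.20, limma adjusted p = 0.588). LIL3:2 was higher in the double mutant than in clf-28 (log2 0.61, SE 0.20, limma adjusted p = 0.0376). Against swn-7 it was not called (log2 -0.07, limma adjusted p = 0.791). The difference between the LIL3 genes was not tested.

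In the single mutants 0 of these 7 genes passed limma's test, in clf-28 against 0.121% of all probe sets called in either direction and in swn-7 against 0%. An unadjusted limma p below 0.05 was reached by 1 of the 7 in clf-28 and by 0 in swn-7, and over all 17332 probe sets by 2162 and 2117. Their changes spanned log2 -0.59 to 0.18 in clf-28 and -0.23 to 0.56 in swn-7. LHCB4.3, at 1.07 in clf-28, lay outside that span. In the interaction 6 of 7 were below additivity, against 15.7% of all probe sets, with a median of -2.47 against 0.12 over all tested.

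A further 9 genes were picked by symbol after their values were seen, and are given with no test. NdhL, NdhN and NdhS belong to the plastid NADH dehydrogenase-like complex, which cycles electrons around photosystem I. Their log2 changes in the double mutant were -4.60 (SE 0.23), -4.18 (SE 0.25) and -2.41 (SE 0.25). The biogenesis factors HCF101, LPA1, LPA2, LPA19, LPA66 and PAM68 had smaller values, from HCF101 at -1.59 (SE 0.16) to LPA66 at -0.59 (SE 0.23). All 9 were below 0 in the double mutant, and each was below LHCB4.3.

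**Figure D3:**
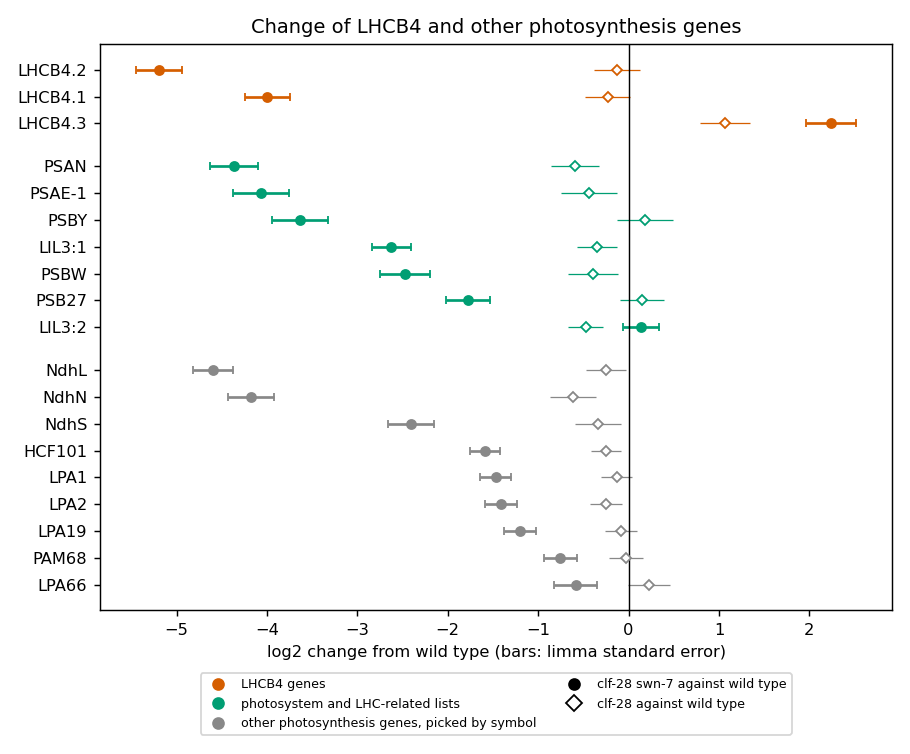
Log2 change from wild type with limma standard errors for the LHCB4 genes (orange), the 7 measured photosystem and LHC-related genes (green) and 9 further photosynthesis genes (grey), in the double mutant (filled circles) and clf-28 (open diamonds). LHCB4.3 stands to the right at 2.24 and 1.07, LIL3:2 lies at 0.14, and the other genes lie below 0 in the double mutant.

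To place each gene, the 9419 other named and tested genes were ranked by the root mean square distance between log2 profiles over the 8 arrays, each centred on its own mean. The double-mutant arrays carry most of such a distance, so it describes size as well as shape. The genes ranked nearest have similar changes by construction, so nothing further is read from that likeness. Nearest to LHCB4.1 were AT2G43560 (0.15), AT2G34620 (0.16), the Calvin-cycle kinase gene PRK (0.17), the thylakoid calcium-sensor gene CaS (0.18) and PSAE-1 (0.19). Their double-mutant changes ran from log2 -4.06 for PSAE-1 to -3.79 for AT2G43560. LHCB4.2 lay at a distance of 0.55 from LHCB4.1, with 103 of the 9419 genes nearer to LHCB4.1.

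Nearest to LHCB4.2 were AT2G45180 (0.13), AT3G22210 (0.14), LrgB (0.21), which encodes a plastid glycolate and glycerate transporter, the sucrose transporter gene SWEET11 (0.24) and AT3G48420 (0.26). SWEET11 changed by log2 -5.21 and AT2G45180 by -5.37. LHCB4.1 was further from LHCB4.2 than 31 of the candidates.

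Nearest to LHCB4.3 were the acyl activating enzyme gene AAE16 (0.19), AT1G53790 (0.29), AT2G36970 (0.30), AT1G72940 (0.31) and AT2G46140 (0.31), which the annotation also lists as the late embryogenesis abundant gene LEA27. AAE16, nearest by this ranking of the same arrays, was log2 1.03 above wild type in clf-28, 0.25 in swn-7 and 2.03 in the double mutant. The clf-28 values of the other 4 lay between 0.36 and 0.81. LHCB4.1, at a distance of 2.55, was further from LHCB4.3 than 9344 of the 9419 candidates.

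**Figure D4:**
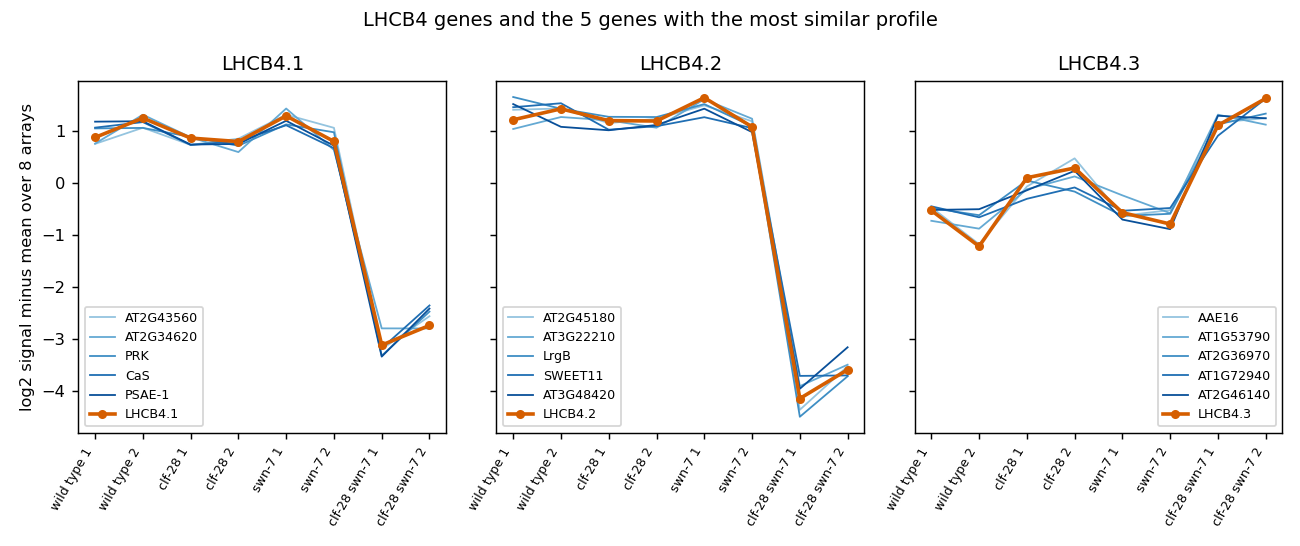
Log2 signal minus its mean over 8 arrays for each LHCB4 gene (orange) and the 5 genes with the smallest profile distance (blue), by array. The profiles around LHCB4.1 and LHCB4.2 vary over 6 arrays by much less than they drop on both double-mutant arrays. Those around LHCB4.3 step up in clf-28 and again in the double mutant.

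The LHCB4 genes lie on different chromosomes, and the measured genes directly beside LHCB4.2 and LHCB4.3 did not pass the test in the double mutant against wild type. AT3G08930 lies directly beside LHCB4.2 in the RefSeq gene order (TAIR10.1) (log2 -0.21, SE 0.13, limma adjusted p = 0.205). It was lower in the double mutant than in clf-28 (log2 -0.42, limma adjusted p = 0.0301) and swn-7 (log2 -0.56, limma adjusted p = 0.00995), with an interaction of -0.76 (limma adjusted p = 0.0169). AT2G40110 lies directly beside LHCB4.3 (log2 -0.18, SE 0.21, limma adjusted p = 0.494). On the other side of LHCB4.2, with 3 genes between, AT3G08960 was at log2 0.24 (limma adjusted p = 0.639). On the other side of LHCB4.3, with 9 genes between, AT2G40020 was at -0.98 (limma adjusted p = 0.0514). Genes without a named and tested probe set were passed over. Around LHCB4.1 the nearest measured genes were TAAC, with 2 genes between, and AT5G01610, with 10 between. TAAC, a thylakoid nucleotide carrier gene, rose by log2 1.18 (SE 0.28, limma adjusted p = 0.0106), and AT5G01610 fell by 1.46 on the log2 scale (limma adjusted p = 0.00111).

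Other tissues' markers moved with the double mutant. Of 17 embryo and seed markers 4 are among the named and tested probe sets (OLEO3, AT3G01570, PAP85 and BBM). In the double mutant 4 of 4 rose, against 25.2% of all probe sets called higher. Their summed signal was 10786 and 9576 in the double mutant and 24.5 to 137 on the other 6 arrays, on each of which at least 1 of the 4 was at the floor. Of 8 root markers 3 are among the named and tested probe sets (EXPA7, EXPA18 and AT5G66390). Their summed signal was 22.4 and 15.6 in the double mutant, 169 and 264 in clf-28 and 113 to 186 in wild type and swn-7. All 3 were called lower in the double mutant, against 21.5% of all probe sets. There 2 of them were at the floor on replicate 1 and 3 on replicate 2, and values below the floor were not told apart. The marker lists too were chosen with earlier results of these data known. None of 7 floral markers is among the named probe sets. The 3 measured reference transcripts summed to 452 to 521 on all 8 arrays, and 1 of them, AT4G34270, rose in the double mutant (log2 0.58, SE 0.18, limma adjusted p = 0.0308), with PEX4 at -0.24 and AT2G28390 at 0.19. The part of tissue make-up in the LHCB4 values was not tested.

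The plastid-encoded transcripts, read by 69 probe sets, had a median log2 difference from the wild-type mean of -2.90 on swn-7 replicate 2 and between -0.91 and 0.22 on the other 7 arrays. That array also gave the lowest LHCB4.2 signal outside the double mutant, 3037, and the lowest but 1 for LHCB4.1, 3913. The wild-type arrays differed most from each other, with 1059 of 17332 probe sets at least 2-fold apart, against 161 to 554 in the other genotypes. The part of these gaps in the LHCB4 values was not tested. For LHCB4.3, the double mutant was log2 1.90 above wild type and clf-28 0.72 above it without wild type replicate 2, and 2.59 and 1.41 without wild type replicate 1.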

How the data were processed

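Each deposited value is the linear array intensity of a probe set. The submitters' processing notes name MAS5 and GCOS, and the versions and a genome build for the probes were not given in the sources. Each array had a trimmed mean (2% at each end) of 100.0, and no further scaling was applied. Detection calls were left aside. The number of arrays limits the precision.

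The floor was 10% of the mean of these trimmed means, lower signals were raised to it, and log2 was taken. Without the 64 control probe sets, those above the floor on at least 2 arrays were tested, 17332 of 22746. On each array 69.1% to 71.6% of probe sets exceeded the floor. In R 4.3.3, limma 3.58.1 fitted 1 mean per genotype over the 8 arrays (lmFit, eBayes with an intensity trend, 4 residual and 3.43 prior degrees of freedom). Two-sided p-values were adjusted by Benjamini-Hochberg over all tested probe sets, with a threshold of 0.05. The fit was tested on simulated data.

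Genes were named from the platform annotation, updated through RefSeq tables, which matched 9492 of 9532 named tested probe sets. The members and lists were chosen with earlier results of these data known. Named genes follow a rule: the LHCB4 genes, up to 4 per list by adjusted p in the double mutant, the 5 nearest profiles, the nearest measured neighbours and 2 per marker list. The other markers and the 9 genes picked by symbol fall outside it. The lists of antenna insertion (6 genes), phosphorylation (4) and regulators (11) had 0 members among the named probe sets. The annotation used here names neither CLF nor SWN, and the mutated genes were not analysed here. Alternatives covered floors, scaling, filters, eBayes variants, a replicate block, fits to the compared arrays and leaving out each array.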

Additional observations from a re-analysis of the deposited data

Results flagged for a closer look

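The interaction sets the step from wild type to clf-28 against the step from swn-7 to the double mutant. It was called for 6 of the 7 measured photosystem and LHC-related genes (limma, adjusted over all probe sets). All 6 were below additivity, against 15.7% of all probe sets, and the lists were chosen with earlier results of these data known. The interaction was log2 -4.08 for PSBY (limma adjusted p = 0.000632), -3.63 for PSAN (limma adjusted p = 0.000525) and -3.40 for PSAE-1 (limma adjusted p = 0.00131). It was -2.47 for PSB27 (limma adjusted p = 0.00192), -2.29 for LIL3:1 (limma adjusted p = 0.00163) and -2.17 for PSBW (limma adjusted p = 0.00563). The double mutant was also 2 days older, and age and genotype cannot be told apart here.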

How the results depend on the processing

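In the double mutant the LHCB4.1, LHCB4.2 and LHCB4.3 changes kept their sign under 5 other floors and scalings (log2 -4.06 to -3.91, -5.25 to -5.06 and 2.02 to 2.27) and when 1 of the 4 compared arrays was left out (-4.18 to -3.81, -5.47 to -4.92 and 1.90 to 2.59). The floors of 5% and 20% could not move any LHCB4 value, since every LHCB4 signal lay above them. Of the LHCB4 interactions, quantile normalization moved LHCB4.1 to -4.06 and LHCB4.2 to -5.40, and leaving out 1 array gave -3.99 to -3.50, -5.39 to -4.83 and, for LHCB4.3, 0.64 to 1.33. The LHCB4.3 change in clf-28 ranged from 0.72 to 1.41 over omissions. Small single-mutant changes turned sign: with quantile normalization clf-28 gave 0.042 for LHCB4.1 and 0.064 for LHCB4.2 and swn-7 gave 0.10 for LHCB4.1, and with equal medians swn-7 gave 0.080 for LHCB4.1. Over omissions swn-7 ranged from -0.26 to 0.23 for LHCB4.1, from -0.24 to 0.32 for LHCB4.2 and from -0.15 to 0.54 for LHCB4.3. Equal medians moved the median interaction of all tested probe sets from log2 0.12 to -0.035. The 6 photosystem and LHC-related calls numbered 6 under every alternative run, in the double mutant and in the interaction. All-probe-set counts moved more. The 21 clf-28 calls became 42 with a constant added, 10 with only probe sets above the floor on all arrays, 0 with only the compared arrays (fewer samples) and 2 to 584 over omissions: 584 without wild type replicate 2, 2 or 8 when clf-28 lost replicate 2 or 1, and 7 without either swn-7 replicate. The 0 swn-7 calls became 8 with no filter, 1 with probe sets above the floor on all arrays and 0 to 806 over omissions (806 without wild type replicate 2, 15 without replicate 1). The interaction calls, 5378, were 3274 to 5678 over omissions, falling to 3274 and 3395 when clf-28 replicate 2 or 1 was left out and to 3556 when it was double mutant replicate 1. Such fits take the spread of a lone array from the other genotypes. The planned counts over the antenna list were not run, since it has 0 named members. Where no construction shows it, the cause was not tested. The replicate number marks no stated shared batch, and same-numbered arrays of 2 genotypes deviated together with correlations of -0.08 to 0.22. With it as a replicate block, 7970 probe sets were called in the double mutant and 23 in clf-28, against 8089 and 21 in the main fit. With only the compared arrays (fewer samples), the double-mutant calls were 5897.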
